A study of Homo sapiens with 18 samples.

Results

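The human genes for the proteins of the mitochondrial ribosome were described here across 3 lung cancer cell lines, before and after epithelial-mesenchymal transition (EMT). They were taken by symbol, as MRPL followed by a number (large subunit) or MRPS followed by a number with or without a letter A to C (small subunit). This gave 74 genes of the 19849 in the table, 46 with MRPL and 28 with MRPS symbols, each read by 1 probe set. Expression was measured in A549, HCC827 and NCI-H358, human lung cancer lines cultured in RPMI1640 medium with 10% fetal bovine serum and 4 mM glutamine. There were 6 groups of 3 arrays, 18 arrays in all. The Parental groups were the untreated lines, and the EMT groups were the same lines after 3 weeks of TGFβ, a cytokine that induces EMT, at 2 ng/ml. TGFβ was left out from the day before lysis, when per the labels the medium was replaced and per the study's methods the cells were re-plated, so the EMT arrays show cells after treatment rather than under it. Each EMT group was derived from 1 line, so cells of different lines are not replicates of one another, and the study's methods give durations of treatment that differ between lines. The labels do not say whether the arrays of a group came from separate cultures. A legend of the study describes the samples behind its array heat map as biologically separate and made together, so the p values measure the spread between samples of one occasion.

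The mitochondrial ribosome translates the few messenger RNAs encoded by mitochondrial DNA, all of which code for subunits of the respiratory chain and ATP synthase. Its ribosomal RNAs are transcribed in the organelle, whereas its proteins are encoded in the nucleus, made in the cytosol and imported. Some of these proteins descend from bacterial ribosomal proteins, and others are found only in mitochondria. TGFβ-induced EMT is the process in which epithelial cells lose cell contacts and epithelial markers and take on a mesenchymal form.

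The values were RMA levels, which are background-corrected, quantile-normalized and on the log2 scale, so that a difference of 1 is a 2-fold change. Array medians lay between 6.31 and 6.47, and the standard deviation of log2 differences between arrays of a group was 0.163 to 0.282 over all genes. The 5 epithelial markers (CDH1, EPCAM, KRT8, KRT18 and KRT19) were all lower and the 5 mesenchymal markers (VIM, CDH2, FN1, ZEB1 and SNAI1) all higher in the EMT groups of each line. CDH1, which encodes E-cadherin, fell by 5.81, 2.95 and 3.94 on the log2 scale in A549, HCC827 and NCI-H358, and FN1, which encodes fibronectin, rose by 3.11, 3.98 and 1.99. Of 3 lung lineage markers, 0 changed in A549, NAPSA fell by 4.71 in HCC827 from a mean of 10.87, and NKX2-1 fell by 1.06 in NCI-H358. Among 3 markers of other cells, PTPRC of leukocytes stayed between 2.83 and 3.18 in every group. CD68 of macrophages rose by 0.37 in A549 and fell by 0.39 in HCC827, and PECAM1 of endothelium rose by 0.41 in HCC827, at means of 4.66 to 7.55. Their part in the results was not tested.

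Most of the ribosomal protein genes were bright on these arrays. The mean level over the 18 arrays ran from 3.19 to 12.29 among the members, and the median member stood at percentile 92.2 of all genes. However, 6 members had a mean below 7, namely MRPS27, MRPL39, MRPS5, MRPL35, MRPS12 and MRPS14, and MRPS27 stood at percentile 5.6. A dim value on 1 probe set may be a weak probe set, and other probe sets of these genes were not analysed here. Of the 74 probe sets, 37 carry the suffix _s_at and 2 carry _x_at, which Affymetrix gives to probe sets whose probes can match several transcripts. Within a group the median standard deviation of a member was 0.041 to 0.087, below the 0.084 to 0.121 of all genes.

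The members were compared first as a whole, array by array. For each array the deviation of every member from its own mean over the 18 arrays was taken, and the median of these deviations was computed. In A549 it was 0.16, 0.17 and 0.18 on the parental arrays and -0.23, -0.18 and -0.19 on the EMT arrays. HCC827 had 0.04, 0.12 and 0.15 on parental arrays and -0.10, -0.05 and -0.16 on EMT arrays. The states of A549 and of HCC827 therefore did not overlap, and EMT was the lower state in both. NCI-H358 had 0.02, 0.06 and -0.07 on parental arrays and 0.03, 0.08 and 0.09 on EMT arrays, so that its states overlapped. Over all genes of the table the same median stayed between -0.07 and 0.02. Over genes with a mean above 9 it was 0.03, 0.04 and 0.07 on parental and -0.10, -0.04 and -0.06 on EMT arrays of A549. Bright genes in general were thus also lower after EMT in A549, by less than the members. For these genes HCC827 had -0.02, 0.01 and 0.01, then -0.02, -0.02 and -0.06, and NCI-H358 had 0.04, 0.04 and 0.01, then 0.04, 0.04 and 0.05. In bulk RNA, fewer cells expressing a gene and less RNA per cell cannot be told apart.

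**Figure D1:**
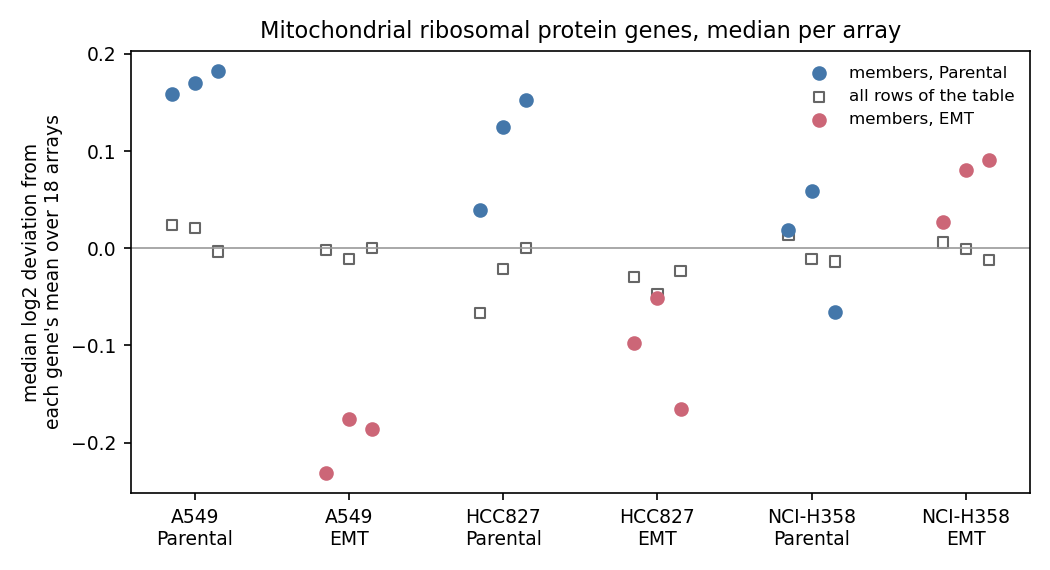
Median log2 deviation of the 74 members from their own means over 18 arrays (filled points, 1 per array, blue for Parental and red for EMT) and the same median over all 19849 genes (open squares). Parental A549 arrays sit at 0.16 to 0.18 and EMT A549 arrays at -0.23 to -0.18, whereas the NCI-H358 arrays sit between -0.07 and 0.09.

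Gene by gene, the 2 states of a line were compared by limma, fitted once to the 18 arrays together, and a gene was called at a Benjamini-Hochberg adjusted p below 0.05 over all 19849 genes. In A549 60 members were called lower and 0 higher, where 26.8% of all genes were called lower and 16.6% higher. At an unadjusted p below 0.05 limma gave 62 lower and 0 higher, and the methods' t-test with Benjamini-Hochberg adjustment also called 0 higher. Of 3603 genes as bright as most members (a mean above 9), 43.6% were called lower and 22% higher. The median log2 fold change of the members was -0.38, against -0.02 over all genes and -0.11 over those with a mean above 9. In HCC827 39 members were called lower and 9 higher, with 25% of all genes called lower and 20.8% higher (37.9% and 30.5% of the bright genes), and the median was -0.22. In NCI-H358 9 were called lower and 19 higher, with 19.8% and 21.5% of all genes (27.3% and 34.2% of the bright ones), and the median was 0.10. The share higher in NCI-H358 thus lay near the background. When each array was centred on its median, 22 members were called higher there and 2 lower. The sizes were small. A change above 1.5-fold was seen for 7 members in A549, all lower (10% of all genes were called lower and 7.33% higher at this size), for 9 lower and 1 higher in HCC827 (12.5% and 9.66%), and for 0 in NCI-H358 (10.1% and 8.72%). At the stricter thresholds of the study, which asked for 5-fold and an adjusted p below 1e-05, limma called 0 members in each line, where 1.9%, 2.95% and 2.17% of all genes were called.

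The counts for A549 moved little when 1 array was left out, between 54 and 61 members lower. Those for NCI-H358 moved more. Without parental replicate 3 of NCI-H358 11 members were called higher, and without EMT replicate 3 there were 12. The 9 called lower there became 5 without parental replicate 1, 3 without parental replicate 2, 3 without EMT replicate 1 and 2 without EMT replicate 2. In HCC827 the 9 called higher became 5 without EMT replicate 2. Every EMT array of A549 lay below every parental array for 65 members, a pattern that 31.4% of all genes showed, and above for 1 (21%). In HCC827 37 members lay wholly below (27.4% of all genes) and 9 wholly above (23.8%), and in NCI-H358 13 lay below (24.4%) and 32 above (27.2%).

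**Figure D2:**
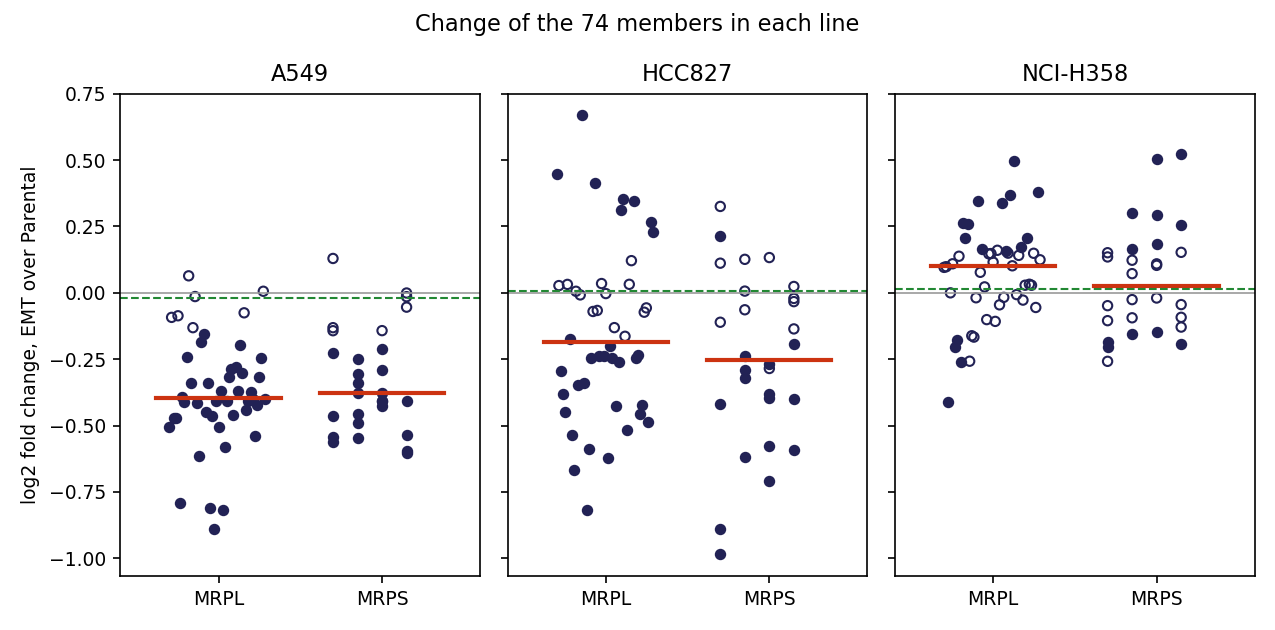
Log2 fold change of EMT over Parental for each member in A549, HCC827 and NCI-H358, split into MRPL and MRPS symbols. Filled points were called at an adjusted p below 0.05, the red bar is the median of the members and the dashed green line the median of all genes; in A549 60 of the 74 points are filled and all of these lie below 0.

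Members with either symbol took part in A549. The symbol does not always name the subunit, as given below for MRPS18A, MRPS30 and MRPS36. Of 46 MRPL members 39 were called lower, with a median of -0.39, and of 28 MRPS members 21, with a median of -0.38. These were 84.8% and 75%, against 26.8% of all genes. The MRPL members with a bacterial counterpart gave 28 of 30 lower and the remaining MRPL members 11 of 16. For the MRPS members these counts were 12 of 15 and 9 of 13. In HCC827 24 MRPL and 15 MRPS members were called lower (52.2% and 53.6%, against 25% of all genes). Called higher there were 8 and 1 (17.4% and 3.57%, against 20.8%). NCI-H358 had 4 MRPL and 5 MRPS members lower (8.70% and 17.9%, against 19.8% of all genes), and 12 and 7 higher. The shares higher there, 26.1% and 25%, lay near the 21.5% of all genes and below the 34.2% of those with a mean above 9.

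The 2 lowest fold changes in A549 belonged to genes of the stalk, the mobile arm of the large subunit that recruits translation factors, and of its base. MRPL12, the stalk protein, which also binds the mitochondrial RNA polymerase, measured 11.43, 11.43 and 11.38 in parental A549 and 10.50, 10.58 and 10.49 in EMT A549. The EMT arrays lay wholly below the parental ones, 1.85-fold lower (log2 fold change -0.89, SE 0.076, limma adjusted p = 4.66e-08). In HCC827 MRPL12 was at 10.12, 10.46 and 10.41 before and at 10.35, 10.41 and 10.34 after EMT, and in NCI-H358 at 11.13, 11.16 and 11.03 and then at 11.20, 11.27 and 11.29. The states of HCC827 overlapped, and neither line was called (differences of 0.03 and 0.15 with limma adjusted p = 0.764 and 0.147). The parental HCC827 arrays were below each EMT array of A549. MRPL54, a mitochondria-specific protein near the stalk base, stood at 9.36, 9.34 and 9.36 in parental A549 and at 8.43, 8.56 and 8.62 after EMT (-0.82, SE 0.074, limma adjusted p = 9.47e-08). In HCC827 it fell by 0.20, a call that was lost without parental replicate 2 or 3 or any of the 3 EMT arrays (adjusted p of 0.0547 to 0.160). In NCI-H358 the difference was 0.16 (limma adjusted p = 0.0997).

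The other stalk genes on the list were lower in both A549 and HCC827. MRPL11, at the stalk base, fell by 0.61 in A549 and by 0.82 in HCC827, where it went from 10.29, 10.55 and 10.47 to 9.64, 9.66 and 9.56. MRPL10, which anchors the stalk, fell by 0.41 and 0.54. In NCI-H358 the differences were -0.17 and 0.14 and were not called in limma, although MRPL11 was called lower there without EMT replicate 3 (limma adjusted p = 0.0428). Of the 4 measured stalk genes, A549 thus had 4 called lower, HCC827 had 3 and NCI-H358 had 0 (26.8%, 25% and 19.8% of all genes). MRPL53 was not analysed here.

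The promoters of MRPL12 and MRPL54 are shown because these genes had the 2 lowest fold changes in A549. They are taken from RefSeq on GRCh38.p14 and run from 250 bases before to 50 bases after the gene start, on the + strand at chr17:81703117-81703416 for MRPL12 and at chr19:3762432-3762731 for MRPL54. Capitals mark exact matches, on either strand, to 3 motifs of transcription factors tied to mitochondrial genes, CCGGAAG (ETS family, which includes GABPA), AAGATGGC (YY1) and CGCATGCG (NRF1). MRPL54 holds 1 ETS match, which begins at base -21 (negative bases lie before the start), and MRPL12 holds none of the 3 motifs.
MRPL12: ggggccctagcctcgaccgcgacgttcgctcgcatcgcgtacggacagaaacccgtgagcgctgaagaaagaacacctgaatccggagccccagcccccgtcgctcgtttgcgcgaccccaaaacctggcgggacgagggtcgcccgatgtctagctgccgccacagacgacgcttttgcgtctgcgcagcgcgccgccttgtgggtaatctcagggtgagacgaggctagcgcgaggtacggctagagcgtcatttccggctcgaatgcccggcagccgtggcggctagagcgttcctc
MRPL54: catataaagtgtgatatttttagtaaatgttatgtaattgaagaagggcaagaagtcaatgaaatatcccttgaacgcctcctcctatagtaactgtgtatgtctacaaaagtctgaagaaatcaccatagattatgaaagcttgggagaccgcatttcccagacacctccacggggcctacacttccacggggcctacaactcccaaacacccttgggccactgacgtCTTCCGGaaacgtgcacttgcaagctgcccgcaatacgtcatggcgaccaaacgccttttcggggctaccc

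Among the large-subunit members outside the stalk, MRPL4 and MRPL38 changed most in A549. MRPL4, whose bacterial counterpart lines the exit tunnel, went from 8.44, 8.45 and 8.48 to 7.50, 7.71 and 7.75 (-0.81, SE 0.092, limma adjusted p = 1.54e-06). HCC827 and NCI-H358 showed differences of -0.07 and 0.02 for it, with overlapping arrays. MRPL38, of the central protuberance, went from 8.84, 8.86 and 8.83 to 7.93, 8.10 and 8.12 in A549 (-0.79, SE 0.065, limma adjusted p = 2.43e-08). In HCC827 its difference was 0.03. In NCI-H358 it fell by 0.20, a call that was lost without parental replicate 1 or 2 or EMT replicate 1 or 2 (adjusted p of 0.0513 to 0.0832).

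HCC827 had a different order of members. Here the lowest fold changes were those of MRPS15, a small-subunit protein that binds the ribosomal RNA early in assembly, and MRPS33, a mitochondria-specific protein of the small subunit. MRPS15 went from 10.60, 10.62 and 10.64 to 9.68, 9.78 and 9.45, which was 1.98-fold lower (-0.98, SE 0.072, limma adjusted p = 4.11e-09). It also fell in A549, by 0.54. MRPS33 went from 11.19, 11.31 and 11.31 to 10.39, 10.39 and 10.35 (-0.89, SE 0.061, limma adjusted p = 1.68e-09), and by 0.23 in A549. The states of HCC827 did not overlap for either gene.

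On the other side, 9 members rose in HCC827, which 0 did in A549. MRPL1, of the mobile arm at the exit side of the large subunit that handles outgoing transfer RNA, went from 9.44, 9.88 and 9.78 to 10.14, 10.19 and 10.12 (0.45, SE 0.094, limma adjusted p = 0.000697). The MRPL1 call was lost under the methods' t-test (adjusted p = 0.0744). MRPL52 went from 10.62, 10.72 and 10.71 to 11.06, 11.11 and 11.12 (0.41, SE 0.055, limma adjusted p = 7e-06). Both were higher on every EMT array. MRPL39 had the highest fold change, 0.67, but it was dim, at 5.25, 4.44 and 4.59 before and 5.40, 5.49 and 5.39 after EMT. Its call (limma adjusted p = 0.044) was lost without parental replicate 2 or 3 or any EMT array of HCC827, with adjusted p values of 0.0774 to 0.174. The others called higher were MRPL2, MRPL48, MRPL35, MRPL37, MRPL21 and MRPS18C, by 0.22 to 0.36. The call for MRPL35 was lost without parental replicate 2 or EMT replicate 2 (adjusted p of 0.0593 and 0.0510).

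In NCI-H358 the largest rises were those of MRPS14 and MRPS25, of the small subunit, and MRPL41, a mitochondria-specific protein of the large subunit. MRPS25 went from 8.78, 8.78 and 8.62 to 9.29, 9.19 and 9.21 (0.50, SE 0.084, limma adjusted p = 9.66e-05). MRPL41 went from 11.02, 10.93 and 10.82 to 11.41, 11.35 and 11.50 (0.50, SE 0.072, limma adjusted p = 2.33e-05). MRPS14, which was dim, went from 6.84, 7.01 and 6.84 to 7.28, 7.41 and 7.56 (0.52, SE 0.109, limma adjusted p = 0.000838). The arrays of the 2 states did not overlap for any of these genes. In A549 and HCC827 MRPS25 fell by 0.29 and 0.40 and MRPL41 by 0.20 and 0.52, while MRPS14 showed differences of -0.01 and -0.02. The HCC827 call of MRPS25 was lost under the methods' t-test (adjusted p = 0.0762). Its A549 call was lost in limma with arrays centred on their median (adjusted p = 0.0594). The A549 call of MRPL41 (limma adjusted p = 0.0375) was lost without any 1 of the parental arrays or EMT replicate 1 or 2 (adjusted p of 0.0547 to 0.0933).

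**Figure D3:**
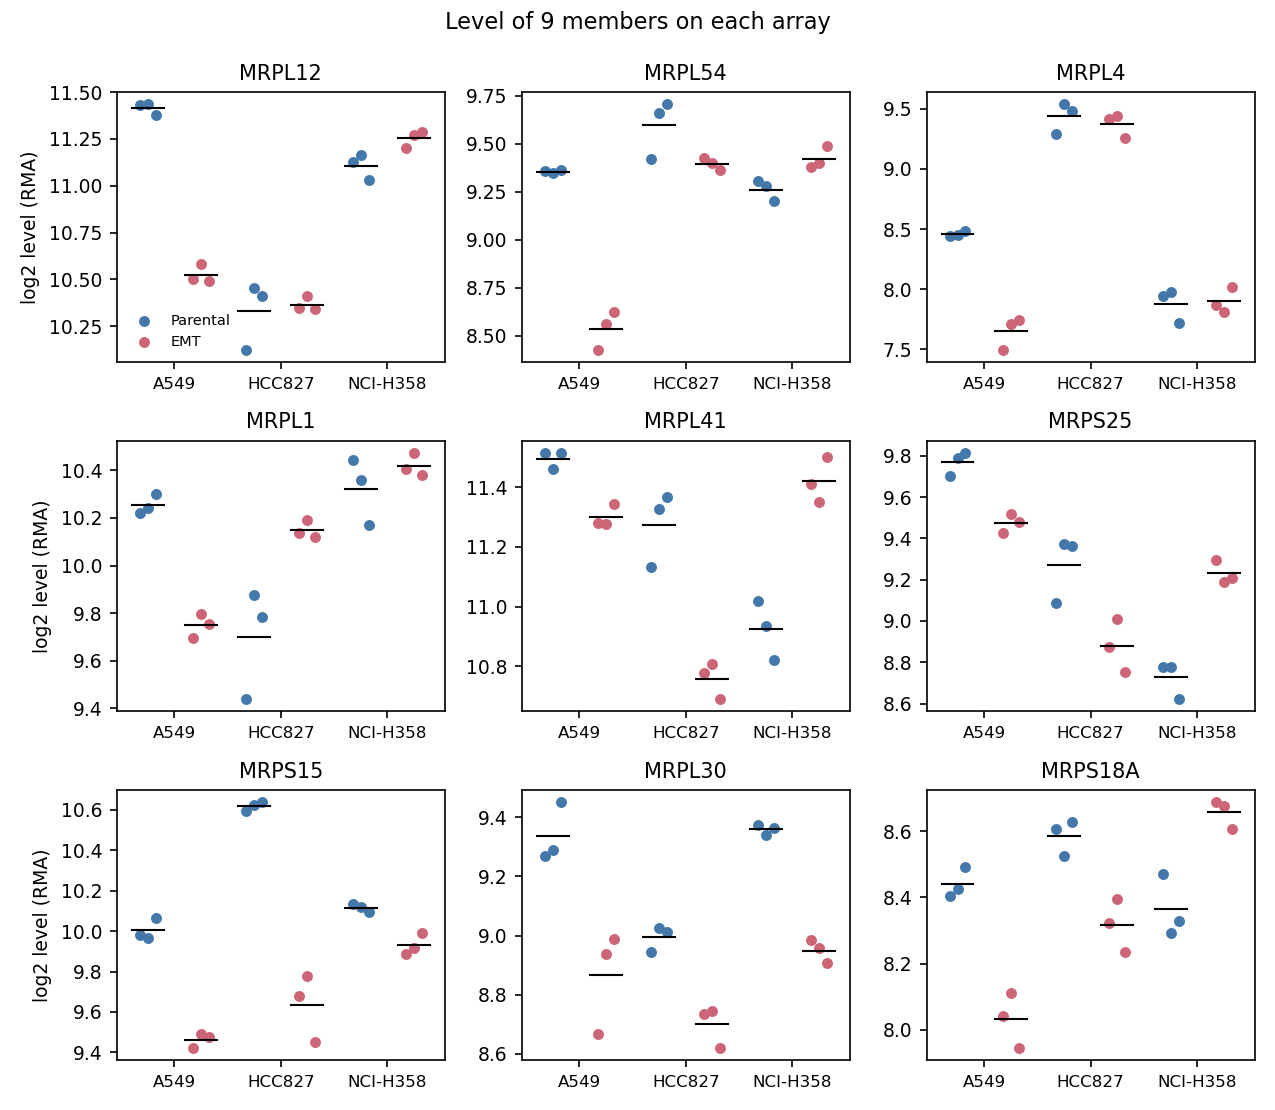
RMA log2 level of 9 members on each of the 18 arrays (points, blue for Parental and red for EMT) with group means (bars); each panel has its own axis, which does not start at 0. In A549 the changes of MRPL12, MRPL54 and MRPL4 are -0.89, -0.82 and -0.81, whereas MRPL30 is lower after EMT in each line.

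A fall in every line was called for 7 members, 9.46% of them, where 6.14% of all genes were called lower in each line, and a rise in every line for 0 members, against 4.31%. The 7 were MRPL22, MRPL30 and MRPL44 of the large and MRPS15, MRPS26, MRPS28 and MRPS35 of the small subunit. MRPL30 went from 9.27, 9.29 and 9.45 to 8.67, 8.94 and 8.99 in A549, from 8.94, 9.03 and 9.01 to 8.73, 8.74 and 8.62 in HCC827, and from 9.37, 9.34 and 9.36 to 8.98, 8.96 and 8.91 in NCI-H358. These falls of 0.47, 0.30 and 0.41 (SE 0.078 each, limma adjusted p = 9.61e-05, 0.00476 and 0.000356) were called with any 1 of the 6 arrays of the line compared left out. MRPL44, a protein near the exit of the large subunit that resembles ribonuclease III, fell by 0.24, 0.67 and 0.26, and these calls also held with any 1 array of the line compared left out. However, its A549 call was lost under the methods' t-test (adjusted p = 0.0534). It was also lost in limma with arrays centred on their median (adjusted p = 0.0672) or on that of genes with a mean above 9 (0.0503).

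The other 5 rested on less when arrays were left out. In NCI-H358 MRPS28 (a fall of 0.15), MRPS35 (0.15), MRPS26 (0.19), MRPL22 (0.18) and MRPS15 (0.18) each lost the call without 4 or 5 of the 6 arrays of that line, with adjusted p values between 0.0533 and 0.181. MRPS28 lost it without parental replicate 1 or 2 or EMT replicate 1 or 2, and so did MRPL22. MRPS35 lost it without parental replicate 2 or any EMT array, MRPS26 without parental replicate 1 or 2 or any EMT array, and MRPS15 without any parental array or EMT replicate 1 or 2. In HCC827 MRPL22 (0.17) and MRPS26 (0.19) lost the call without parental replicate 2 or 3 or EMT replicate 1 or 3 (adjusted p of 0.0565 to 0.163). These values leave out arrays of the gene's own line, whereas the count of 7 was recomputed without each of the 18 arrays. It was 2 without NCI-H358 parental replicate 2, NCI-H358 EMT replicate 1 or NCI-H358 EMT replicate 2. It was 3 without HCC827 EMT replicate 1 or NCI-H358 parental replicate 1, and 4 without A549 EMT replicate 3 or HCC827 parental replicate 2 or 3.

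The same genes moved in opposite directions between lines in several cases. Of the members lower in A549, 35 were also lower in HCC827, 7 were higher in HCC827 and 14 were higher in NCI-H358. Of all 74 members these were 47.3%, 9.46% and 18.9%, and the same calls held for 12.1%, 5.35% and 5.75% of all genes. These shares are not taken among the genes lower in A549, which were 81.1% of members but 26.8% of all genes. The A549 calls alone thus raise the shares of members. Shares among the genes lower in A549 were not computed. Of the members lower in HCC827 (52.7% of members, and 25% of all genes), 9 were higher in NCI-H358, namely MRPS21, MRPS18A, MRPL47, MRPL17, MRPS25, MRPS11, MRPL41, MRPL9 and MRPL33. These 9 were 12.2% of all members, against 3.55% of all genes. The 5 members MRPS31, MRPS27, MRPL14, MRPS5 and MRPL43 were called in no line (6.76% of members, and 31.2% of all genes), and of these MRPS27 and MRPS5 were dim.

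**Figure D4:**
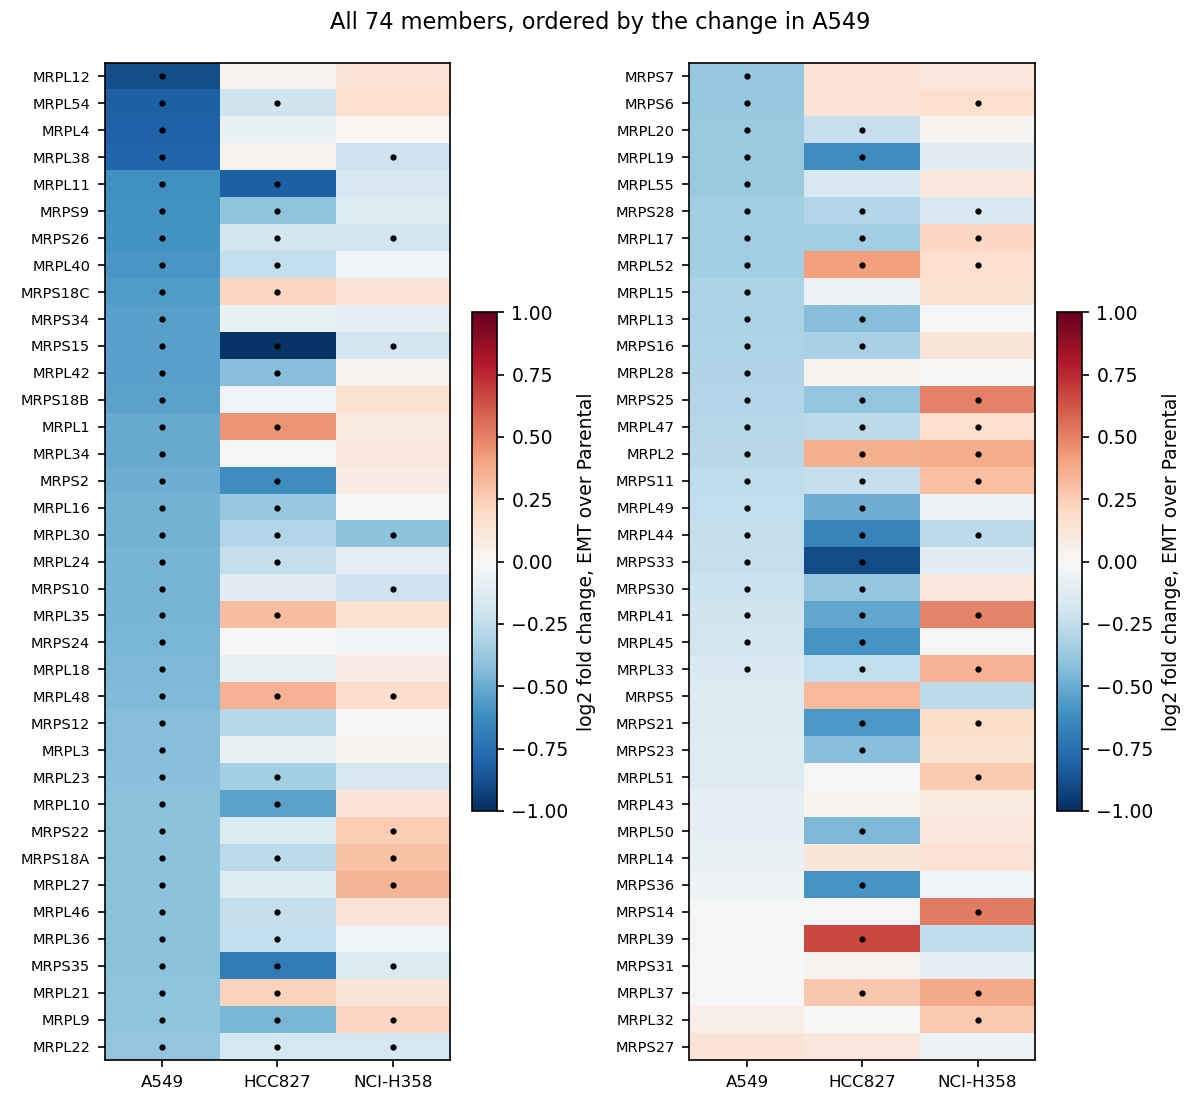
Log2 fold change of EMT over Parental for all 74 members in 3 lines, ordered from the lowest to the highest value in A549 and continued in the right column; blue is lower, red is higher, and a dot marks an adjusted p below 0.05. The A549 column holds 60 dots, all on blue cells, while the NCI-H358 column holds 19 on red and 9 on blue cells.

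Whether the response itself differed between lines was tested as a contrast of the changes. The change in NCI-H358 was above that in A549 for 69 of 74 members (93.2%, and 53.4% of all genes), and the contrast was called for 56, all with the higher change in NCI-H358 (42.8% of all genes were called, 25.7% in that direction and 17.1% in the other). The median difference was 0.45, against 0.03 over all genes. Between HCC827 and A549 39 members were called, 28 of them with the higher change in HCC827 and 11 with the lower (42.2% of all genes called, 22.7% and 19.5% in the respective directions), and between NCI-H358 and HCC827 38, of which 36 had the higher change in NCI-H358 (37.9% called, 21.1% in that direction and 16.8% in the other). Differences above 1.5-fold were called for 12 members between HCC827 and A549 (26.3% of all genes), 17 between NCI-H358 and A549 (26%) and 10 between NCI-H358 and HCC827 (22.8%), and at the thresholds of the study for 0 in each (2.92%, 3.01% and 2.06%). The contrasts share arrays and are not independent of one another.

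MRPL12 led the contrast of NCI-H358 with A549 at 1.04 (SE 0.108, limma adjusted p = 6.5e-07), ahead of MRPL54 at 0.98 and MRPL4 at 0.83. For HCC827 against A549 the largest differences were those of MRPL1 at 0.96, MRPL12 at 0.92 and MRPL38 at 0.82. For NCI-H358 against HCC827 they were those of MRPL41 at 1.01, MRPS25 at 0.90 and MRPS15 at 0.80. MRPL41 and MRPS25 fell in HCC827 and rose in NCI-H358, whereas MRPS15 fell in both by unequal amounts.

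The exit tunnel, through which the nascent chain leaves towards the inner membrane, was covered by a list of 8 members without MRPL4. In A549 7 were called lower (median -0.31), in HCC827 7 lower and 1 higher, the dim MRPL39 (median -0.30), and in NCI-H358 2 lower and 2 higher. Those lower in NCI-H358 were MRPL22 and MRPL44, and those higher were MRPL17 and MRPL47, at 0.21 and 0.16. MRPL45, which ties the ribosome to the inner membrane, fell by 0.18 in A549 and by 0.59 in HCC827. Beside the counts of this list, 26.8%, 25% and 19.8% of all genes were lower in A549, HCC827 and NCI-H358, and 16.6%, 20.8% and 21.5% higher.

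MRPS18A, MRPS18B and MRPS18C are paralogs of 1 bacterial protein. MRPS18A, which sits in the large subunit despite its symbol, went from 8.40, 8.43 and 8.49 to 8.04, 8.11 and 7.94 in A549, from 8.61, 8.52 and 8.63 to 8.32, 8.39 and 8.23 in HCC827, and from 8.47, 8.29 and 8.33 to 8.69, 8.68 and 8.61 in NCI-H358. The states were separate in each line, with falls of 0.41 and 0.27 and then a rise of 0.29 (limma adjusted p = 9.55e-05, 0.00319 and 0.00193). MRPS18B fell by 0.54 in A549 and showed differences of -0.03 and 0.15 in HCC827 and NCI-H358. MRPS18C fell by 0.56 in A549 and rose by 0.22 in HCC827, a call that was lost without parental replicate 1 or 2 or EMT replicate 1 or 2 (adjusted p of 0.0531 to 0.0892), with 0.14 in NCI-H358. Whether the paralogs differed from each other was not tested, since each is read by its own probe set.

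For 2 further symbols the name and the place of the protein differ. MRPS30, also found in the large subunit, fell by 0.21 in A549 and by 0.38 in HCC827, with 0.11 in NCI-H358 (limma adjusted p = 0.00962, 4.96e-05 and 0.180). MRPS36 is now known as a component of the oxoglutarate dehydrogenase complex of the TCA cycle rather than of the ribosome. It went from 11.00, 10.81 and 10.91 to 10.29, 10.35 and 10.31 in HCC827 (-0.59, SE 0.057, limma adjusted p = 1.48e-07). In A549 and NCI-H358 its differences were -0.05 and -0.04 and the arrays overlapped.

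The lines also differed before treatment. Between parental HCC827 and A549 57 members (77.0%) were called (25 higher and 32 lower in HCC827), where 57.1% of all genes were (27.2% and 29.8%). Between parental NCI-H358 and A549 the count was 56, or 75.7% (21 and 35, with 57.9% of all genes, 28.5% and 29.4%), and between parental NCI-H358 and HCC827 it was 53, or 71.6% (20 and 33, with 52.6%, 27.1% and 25.5%). Above 1.5-fold 17, 20 and 20 members were called (33.1%, 35% and 28.9% of all genes). MRPS12, which takes part in decoding, differed most. It was at 7.83, 8.25 and 8.10 in parental A549, at 5.36, 5.38 and 5.43 in parental HCC827 and at 6.26, 6.57 and 6.13 in parental NCI-H358. The difference of HCC827 from A549 was -2.67 on the log2 scale (SE 0.123, limma adjusted p = 5.26e-12). This was the 1 member past the thresholds of the study in the parental comparisons, which 5.15%, 6.19% and 3.32% of all genes passed.

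MRPL35 differed from A549 by -1.71 in parental HCC827 and by -1.35 in NCI-H358. MRPL43, in contrast, differed by 1.67 and 0.87, with levels of 8.20, 8.34 and 8.24 in A549. HCC827 held it at 9.97, 9.85 and 9.97 and NCI-H358 at 9.24, 9.13 and 9.03, so that the 3 lines did not overlap. It was among the 5 members that were called in no line after EMT. MRPS16 differed by -1.28 between NCI-H358 and A549. From HCC827 to NCI-H358 the differences were -1.56 for MRPL4, -1.41 for MRPS28 and 1.04 for MRPL13. Over the 6 groups the mean was highest in parental A549 for 24 members, 32.4% of them (19.9% of all genes), and lowest in EMT A549 for 27, 36.5% (17.5% of all genes). EMT NCI-H358 was the highest group for 19 members, 25.7% (17% of all genes), and EMT HCC827 the lowest for 21, 28.4% (16.7% of all genes).

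The rest of the translation machinery of mitochondria was read from lists of its genes. Over all genes, 26.8%, 25% and 19.8% were called lower in A549, HCC827 and NCI-H358, and 16.6%, 20.8% and 21.5% higher. Over genes with a mean above 9 these shares were 43.6%, 37.9% and 27.3% lower, and 22%, 30.5% and 34.2% higher. Of 7 subunits of the mitochondrial ribosome that carry another symbol, A549 had 6 called lower and HCC827 had all 7, while NCI-H358 had 1 lower and 1 higher. MRP63, a large-subunit protein, fell in each line, by 0.49, 0.96 and 0.28. Of 23 assembly factors 17 were lower in A549 (median -0.36), 8 lower and 3 higher in HCC827, and 3 lower and 8 higher in NCI-H358. Their shares lower in HCC827 and higher in NCI-H358, 34.8% each, lay near those of genes with a mean above 9. GTPBP5, a GTPase of large-subunit assembly, fell by 0.67, 1.40 and 0.44. Translation factors gave 11 of 14 lower in A549, 8 lower and 1 higher in HCC827, and 1 lower and 6 higher in NCI-H358. MTIF3, an initiation factor, fell by 0.29, 0.90 and 0.27.

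The mitochondrial tRNA synthetases, which charge the transfer RNAs of the organelle, numbered 17. In A549 14 of them were called lower (median -0.54), in HCC827 10 lower and 2 higher, and in NCI-H358 3 lower and 4 higher. Their shares lower were 82.4%, 58.8% and 17.6% in A549, HCC827 and NCI-H358, where 26.8%, 25% and 19.8% of all genes were. Their shares higher were 0%, 11.8% and 23.5%, where 16.6%, 20.8% and 21.5% of all genes were. VARS2 fell by 1.16 in HCC827 and by 0.37 in NCI-H358, with -0.24 in A549 (limma adjusted p = 0.0509). Of 9 genes for replication and transcription of mitochondrial DNA, 4 were lower in A549, 4 lower and 1 higher in HCC827, and 2 lower and 2 higher in NCI-H358. The share lower in A549, 44.4%, lay near the 43.6% of genes with a mean above 9. In HCC827 the share lower was 44.4%, against 37.9% of such genes, and in NCI-H358 it was 22.2%, against 27.3%. POLG2, an accessory subunit of the mitochondrial DNA polymerase, fell by 0.51, 0.47 and 0.25.

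Other ribosomal and respiratory genes served for comparison, again beside all genes, of which 26.8%, 25% and 19.8% were lower in A549, HCC827 and NCI-H358. The shares of all genes higher were 16.6%, 20.8% and 21.5%. Of 85 genes for proteins of the cytosolic ribosome, 8 were called higher and 11 lower in A549, with a median of -0.00, 7 higher and 33 lower in HCC827 (median -0.11), and 14 higher and 4 lower in NCI-H358 (median 0.01). Their share lower in HCC827, 38.8%, lay near the 37.9% of genes with a mean above 9. RPL27A rose in each line, by 1.87, 1.20 and 0.77, on a dim probe set with group means of 4.57 to 7.57. The 36 nuclear genes of complex I, the respiratory complex that holds the most subunits encoded in mitochondrial DNA, gave 18 lower and 0 higher in A549 (median -0.18), 21 and 6 in HCC827 (median -0.23), and 7 and 8 in NCI-H358 (median 0.04). The share lower in A549, 50%, lay near the 43.6% of genes with a mean above 9, and in HCC827 58.3% stood against 37.9%. In NCI-H358 the shares were 19.4% lower and 22.2% higher, against 27.3% and 34.2%. NDUFS1 fell by 0.66 in A549 and by 0.77 in NCI-H358, with -0.14 in HCC827. Among 6 genes encoded in mitochondrial DNA itself, the products of this ribosome, 3 were higher and 1 lower in HCC827, and 0 were called in the other lines. ND6 fell by 0.59 in HCC827, and COX1 and COX2 stood between 14.32 and 14.44 in each group, near the upper end of the scale.

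**Figure D5:**
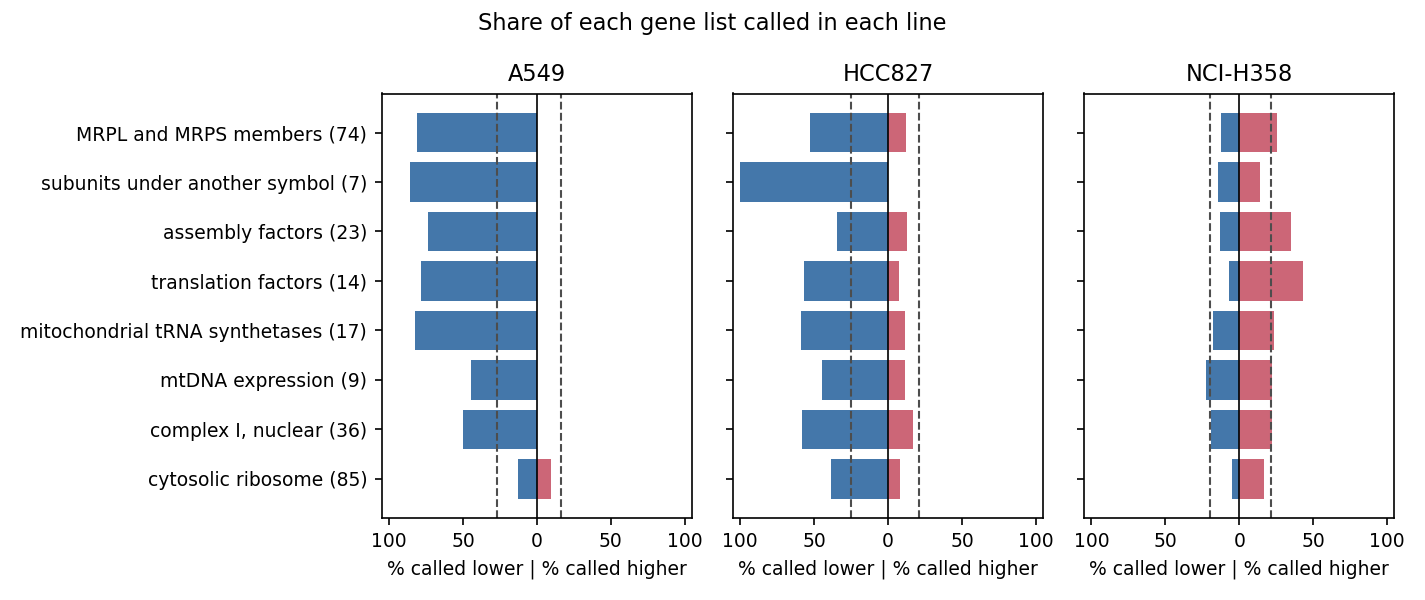
Share of each gene list called lower (blue, to the left) and higher (red, to the right) after EMT in each line, in percent, with the number of genes in brackets; dashed lines give the share of all genes. In A549 the members reach 81.1% lower and the mitochondrial lists of translation lie beyond the dashed line, whereas the cytosolic ribosome stays within it.

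Regulators of mitochondrial gene expression were read as a list of 9. In A549 1 was called higher and 4 lower, in HCC827 5 higher and 1 lower, and in NCI-H358 6 higher and 1 lower. The shares higher were 11.1%, 55.6% and 66.7%, against 16.6%, 20.8% and 21.5% of all genes. The shares lower were 44.4%, 11.1% and 11.1%, against 26.8%, 25% and 19.8%. In HCC827 the list thus leaned higher, whereas 39 members were lower and 9 higher there. ESRRA, an orphan nuclear receptor, fell in each line, by 0.18, 0.77 and 0.45. By name, and chosen after their values were seen, NRF1 fell by 0.65 in A549 and rose by 0.38 and 0.23 in HCC827 and NCI-H358, GABPA fell by 0.27 in A549 and rose by 0.47 in NCI-H358, and YY1 fell by 0.27 in A549 and rose by 0.19 and 0.66. MYC rose by 1.34 in NCI-H358. The genes named here were picked from the list and do not stand for it, and a link to the members was not tested.

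Promoters were found in RefSeq for 66 of the 74 members, and MRPL10, MRPL13, MRPL15, MRPL2, MRPL21, MRPL23, MRPL35 and MRPS28 had no entry. The ETS motif was in 26 of the 66 windows of 300 bases (39.4%), against 10.6% of all 27305 promoters. The YY1 motif was in 20 (30.3%, against 3.00%) and the NRF1 motif in 3 (4.55%, against 2.13%), or in 8 (12.1%, against 7.43%) when its inner 6 letters GCATGC were searched. The E-box CACGTG was in 10 (15.2%, against 7.28%) and the SP1 motif GGGCGG in 38 (57.6%, against 43.8%). Both strands were searched. The 27305 promoters include those of genes that do not code for protein, an unlike set, and 15843 belong to protein-coding genes. Motif shares among protein-coding genes alone were not computed. The ETS motif ends with the letters that begin the YY1 motif, but the joined string CCGGAAGATGGC was in 0 member windows, and 8 windows held both motifs. A match is a string of letters and not a measured site.

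The members were then split by these matches, with lines in the order A549, HCC827 and NCI-H358. Those with an ETS match had median log2 fold changes of -0.41, -0.16 and 0.11, and those without of -0.37, -0.24 and 0.07. With a YY1 match the medians were -0.38, -0.20 and 0.07, and without -0.39, -0.22 and 0.09. The order of the lines was the same in each class, and the differences between classes were not tested.

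A neighbour that starts within 1000 bases and is read in the opposite direction was found for 23 of the 66 members (34.8%), against 17.8% of 15843 protein-coding genes. MRPL46 and MRPS11 are neighbours of this kind and both are members, so that their windows overlap. They are shown with MRPS12, which holds both an ETS and a YY1 match and starts 181 bases from SARS2, the mitochondrial seryl-tRNA synthetase. The windows lie at chr15:88467339-88467638 on the - strand for MRPL46, chr15:88467458-88467757 on the + strand for MRPS11 and chr19:38930694-38930993 on the + strand for MRPS12 (GRCh38.p14, RefSeq), each written 5′ to 3′ on its own strand with the matches in capitals as before. The YY1 match of MRPL46 begins at base 9, counting the start as 1. In MRPS12 the ETS match begins at base -5 and the YY1 match at base -212, where negative bases lie before the start.
MRPL46: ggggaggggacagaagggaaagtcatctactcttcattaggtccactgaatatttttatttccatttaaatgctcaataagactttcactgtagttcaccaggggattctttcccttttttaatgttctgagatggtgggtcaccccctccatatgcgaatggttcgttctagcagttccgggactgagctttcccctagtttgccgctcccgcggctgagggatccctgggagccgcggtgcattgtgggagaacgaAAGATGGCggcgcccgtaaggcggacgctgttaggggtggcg
MRPS11: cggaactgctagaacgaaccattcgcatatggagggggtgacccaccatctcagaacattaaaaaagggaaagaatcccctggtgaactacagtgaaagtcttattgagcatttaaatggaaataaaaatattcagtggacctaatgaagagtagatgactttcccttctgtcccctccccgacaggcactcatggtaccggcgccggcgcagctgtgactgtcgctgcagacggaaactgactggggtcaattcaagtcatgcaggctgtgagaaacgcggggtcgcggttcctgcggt
MRPS12: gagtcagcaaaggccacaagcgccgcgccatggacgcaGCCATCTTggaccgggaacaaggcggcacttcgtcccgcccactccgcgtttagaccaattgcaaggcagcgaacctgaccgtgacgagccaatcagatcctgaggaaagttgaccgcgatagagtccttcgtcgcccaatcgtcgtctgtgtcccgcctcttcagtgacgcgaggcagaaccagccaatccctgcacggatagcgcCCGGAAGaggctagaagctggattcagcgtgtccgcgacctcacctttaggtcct

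MRPL46 and MRPS11, whose starts lie 320 bases apart, had differences of the same sign in each line. MRPL46 fell by 0.41 in A549 and by 0.24 in HCC827 and MRPS11 by 0.25 and 0.24, while in NCI-H358 the differences were 0.15 (not called, limma adjusted p = 0.0894) and 0.30 (called). MRPS12 and SARS2 fell by 0.43 and 0.87 in A549, and the call of MRPS12 was lost without parental replicate 2 (adjusted p = 0.0576). MRPS2 and its neighbour PIERCE1, whose starts are 96 bases apart, fell by 0.49 and 0.46 in A549 and by 0.62 and 0.65 in HCC827. Others parted. MRPS18B fell by 0.54 in A549 where its neighbour PPP1R10 showed 0.11, and MRPL32 showed 0.06 where PSMA2 fell by 0.39. For 18 members the neighbour was in the table, and MRPL46 and MRPS11 are each counted there as a member and as a neighbour. Both genes were called lower for 8 of the 18 in A549, 6 in HCC827 and 0 in the NCI-H358 line. The neighbours taken alone gave 11 lower and 2 higher in A549, 7 and 2 in the HCC827 line, and 1 and 6 in the NCI-H358 line. Of all genes 26.8%, 25% and 19.8% were called lower in these lines, and 16.6%, 20.8% and 21.5% higher. The share of other divergent pairs called lower together was not computed.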

How the data were processed

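The authors hybridized RNA to Affymetrix U133 Plus 2.0 arrays, normalized them by RMA and deposited log2 levels, 1 probe set for each of 19849 genes. The rule that chose the probe set, and the annotation version, are not given in the sources used here. All 18 columns were matched to samples by title, and 0 were left unused. Groups came from the labels, which carry no replicate numbers, so replicates were numbered in accession order.

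From these values limma 3.58.1 in R 4.3.3 (lmFit, eBayes) was fitted once to the 18 arrays with 6 group means, without covariates, and p values were adjusted by Benjamini-Hochberg over all 19849 genes. Calls were made at an adjusted p below 0.05. Differences between lines were contrasts of this fit. With 3 arrays against 3 an exact two-sided permutation test cannot go below 0.1, so it was not used. Array number limits the precision, and depth does not apply.

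The members and lists were chosen with earlier results of these data known. Named members were those called alike in all 3 lines, the 3 highest and 3 lowest called per line, the 3 largest called differences per contrast and per parental comparison, MRPS18A to MRPS18C, MRPS30, MRPS36 and MRPL12, and per list the called gene with the largest mean change. Members outside this rule (MRPL10, MRPL45, MRPL46, MRPS11, MRPS2 and those listed by name with a count) and other list genes were chosen after their values were seen. Promoters and gene starts came from RefSeq (GRCh38.p14), and motifs were searched as exact letters. The lists' sources are textbook assignments of subunits and functions.

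Alternatives were other thresholds, a separate fit per comparison, an intensity trend, a filter on dim genes, the methods' t-test with Benjamini-Hochberg, centring of arrays, a shorter motif and each array left out. In data simulated for the A549 comparison, the 19849 genes had independent normal noise and 1 mean in all groups, save the genes lowered. Of these, all with a mean above 9, 66 of 100 lowered 1.3-fold and 100 of 100 lowered 2-fold were recovered, with 10 false calls. Far more genes were called in the measured data, so these counts do not carry over to them.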

Additional observations from a re-analysis of the deposited data

Results flagged for a closer look

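For 9 differences of the change on EMT between lines, the difference itself was tested within the limma fit. They were the 3 largest among the members called in each contrast, so each was past the threshold by this choice. The p values are those of the same fit and give no separate support. Between HCC827 and A549 they were MRPL1 (0.96, limma adjusted p = 1.58e-05), MRPL12 (0.92, limma adjusted p = 2.3e-06) and MRPL38 (0.82, limma adjusted p = 1.27e-06). Between NCI-H358 and A549 they were MRPL12 (1.04, limma adjusted p = 6.5e-07), MRPL54 (0.98, limma adjusted p = 9.09e-07) and MRPL4 (0.83, limma adjusted p = 5.84e-05). Between NCI-H358 and HCC827 they were MRPL41 (1.01, limma adjusted p = 5.84e-07), MRPS25 (0.90, limma adjusted p = 1.18e-05) and MRPS15 (0.80, limma adjusted p = 7.55e-06). Leaving out single arrays of the lines compared, the 9 differences ran from 0.71 to 1.08, and the largest adjusted p was 0.00025. Groups of 3 arrays were too small for a search for outlying arrays.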

How the results depend on the processing

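No paired analysis was possible because the array labels carry no replicate numbers shared between groups. With a fold change above 1.5 required, the members called in A549 were 7 lower, in HCC827 1 higher and 9 lower, and in NCI-H358 0 higher and 0 lower. The contrasts then gave 12 (HCC827 and A549), 17 (NCI-H358 and A549) and 10 (NCI-H358 and HCC827), the parental comparisons 17, 20 and 20, and all 3 lines 0. At the study's thresholds the counts were 0 for every comparison save 1 for parental HCC827 against A549. A separate fit of each line gave 4 lower in NCI-H358 and 3 in all lines, and the methods' t-test gave 5 higher in HCC827, 5 lower in NCI-H358 and 2 in all lines. Centring each array on its median gave 50 lower in A549, 22 higher and 2 lower in NCI-H358, and 1 in all lines. Centring on genes with a mean above 9, chosen after seeing the data, gave 52 lower in A549. All other alternatives left the counts within 1.5 times. With 1 array left out the counts ran from 54 to 61 (A549 lower), 0 to 0 (A549 higher), 34 to 42 and 5 to 9 (HCC827 lower and higher), 2 to 10 and 11 to 23 (NCI-H358 lower and higher), 34 to 39, 52 to 59 and 34 to 43 (contrasts in the order above), 50 to 59, 55 to 57 and 51 to 55 (parental comparisons) and 2 to 8 (all lines). Among the values of named members under all alternatives, 1178 stayed called or uncalled as before, 110 lost the call, 5 gained it and 0 reversed. A change of sign was counted as reversed only where at least 1 of the 2 fits called the value. Uncalled values among the 1178 may therefore have changed sign. Where calls were lost under another test or centring, the cause was not tested. Signal limits what can be said of the 6 dim members. Without members of a mean below 7, 58 were lower in A549.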
